A study of Homo sapiens with 6 samples.

Results

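Ferritin, iron uptake and iron sensing were followed through 10 genes in cultures of the established bronchial epithelial line BEAS-2B (human) that had received the GPX4 inhibitor RSL3 with or without indirubin. The genes were chosen by symbol for their roles, with earlier results of these data known. Each matched 1 of the 35019 Ensembl identifiers in the expression table. FTH1 and FTL encode the heavy and light chains of ferritin, and NCOA4 encodes the receptor that carries ferritin to the lysosome. TFRC, SLC11A2, SLC39A14 and STEAP3 bring iron into the cell and move it into the cytosol. IREB2, ACO1 and FBXL5 sense iron and set the activity of the iron-regulatory proteins. All 10 genes passed the filter on low values, which kept genes averaging 10 or more normalised counts over all libraries.

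RSL3 blocks the lipid peroxidase GPX4 and starts ferroptosis, a death that depends on iron. Indirubin (ID) is a bis-indole dye known as a kinase inhibitor and a ligand of the aryl hydrocarbon receptor. There were 3 RSL3 libraries and 3 RSL3+ID libraries of total RNA, all from cells given 2 µM RSL3 for 24 h. Indirubin was added 2 h ahead of RSL3, and the protocol names doses from 7.5 to 30 µM without saying which one was sequenced. Every group therefore carries RSL3, and neither untreated cells nor cells with indirubin alone were analysed here. An altered response to RSL3 and an effect of indirubin on its own cannot be told apart. Libraries are numbered as in the deposited columns, whose names give the group but do not tie a column to a sample. Sample titles and tables say RSL3+M, with M undefined, and only the treatment field names the added compound as indirubin. Separate cultures are not recorded for the libraries, and p-values therefore reflect library-to-library spread that may be technical.

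Reads on genes numbered between 15206183 and 18506637 per library, and a count of 0 allows at most 0.162 to 0.197 CPM, for counting error alone. Of 8 bronchial epithelial markers 5 had a mean normalised count of at least 10, with KRT8, KRT18 and KRT7 highest, while the basal cell genes KRT5 and TP63 and the adherens junction gene CDH1 did not reach it. The summed epithelial markers were 42781 to 47458 normalised counts with RSL3 and 33096 to 43270 with RSL3+ID. Fibroblast markers, 3 of 5 of them present, summed to 1539 to 1901 and 1057 to 1754. Endothelial markers (2 of 3 present) summed to at most 77.47 and erythroid markers (1 of 4) to at most 62.31. Leukocyte markers rested on CD14, with PTPRC at no more than 2.066, and summed to 414 to 560.9 with RSL3 and 526.3 to 839.5 with RSL3+ID. Hepatocyte markers summed to at most 26.96 and none of 3 was present. What part these shifts had in the results below was not tested.

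Cells take up iron bound to transferrin through the transferrin receptor, reduce it in the endosome, pass it to the cytosol and store what is not used inside ferritin cages. The heavy chain oxidises iron for storage and the light chain helps the mineral core to form. When iron is scarce, iron-regulatory proteins bind hairpins called iron-responsive elements. A hairpin near the start of a ferritin mRNA then blocks its translation, and hairpins in the tail of the transferrin receptor mRNA keep it from being degraded. Ferritin is thus controlled largely after its mRNA is made, which RNA levels do not show, whereas TFRC mRNA level itself is a target of the sensors. NRF2 also drives transcription of both ferritin genes.

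The hairpins that the sensors read are shown because they mark the ferritin mRNAs, whose translation is under iron control, and the TFRC mRNA, whose stability is. They were found in the principal transcripts of GENCODE 29 on GRCh38 as a C, any 5 bases, the loop CAGTGN, and 5 bases that pair with the former 5 (G with T allowed), read on the sense strand. Capitals mark the loop of 6 bases.
FTH1, 5′ untranslated region, chr11:61967573-61967602, minus strand: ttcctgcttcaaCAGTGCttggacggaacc
FTL, 5′ untranslated region, chr19:48965335-48965364, plus strand: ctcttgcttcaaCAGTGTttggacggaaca
TFRC element 1, 3′ untranslated region, chr3:196050978-196051007, minus strand: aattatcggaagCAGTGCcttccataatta
TFRC element 2, 3′ untranslated region, chr3:196050574-196050603, minus strand: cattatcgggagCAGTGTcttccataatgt
TFRC element 3, 3′ untranslated region, chr3:196050509-196050538, minus strand: ctgtatcggagaCAGTGAtctccatatgtt
TFRC element 4, 3′ untranslated region, chr3:196050462-196050491, minus strand: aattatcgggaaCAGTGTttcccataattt
Of 19652 principal coding transcripts 0.102% held such a match in the 5′ untranslated region and 0.534% in the 3′ untranslated region. Among the 10 genes these were FTH1 and FTL, with 1 match each, and TFRC, with 4. The other 7 had none in these letters.

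The 10 genes spanned a wide range of RNA levels. Levels are compared here per kilobase of the principal transcript, since longer transcripts collect more reads. With RSL3, FTL stood highest at 152197 ± 23649 normalised counts per kb (mean ± SD, n = 3), followed by FTH1 at 15071 ± 1509. TFRC (931 ± 231) and NCOA4 (866 ± 44.7) overlapped each other. SLC39A14 came next at 324 ± 35.9, then ACO1 at 104 ± 2.15 and SLC11A2 at 88.3 ± 14.8. IREB2 (65 ± 15.9) overlapped SLC11A2 above it and FBXL5 (57.5 ± 2.79) below it. STEAP3 was lowest at 12.7 ± 4.36. With RSL3+ID the same neighbours overlapped, and the means of the genes fell in the same order. By mean normalised count FTL was the fourth most abundant of the 14188 genes tested and FTH1 ranked 160.

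**Figure D1:**
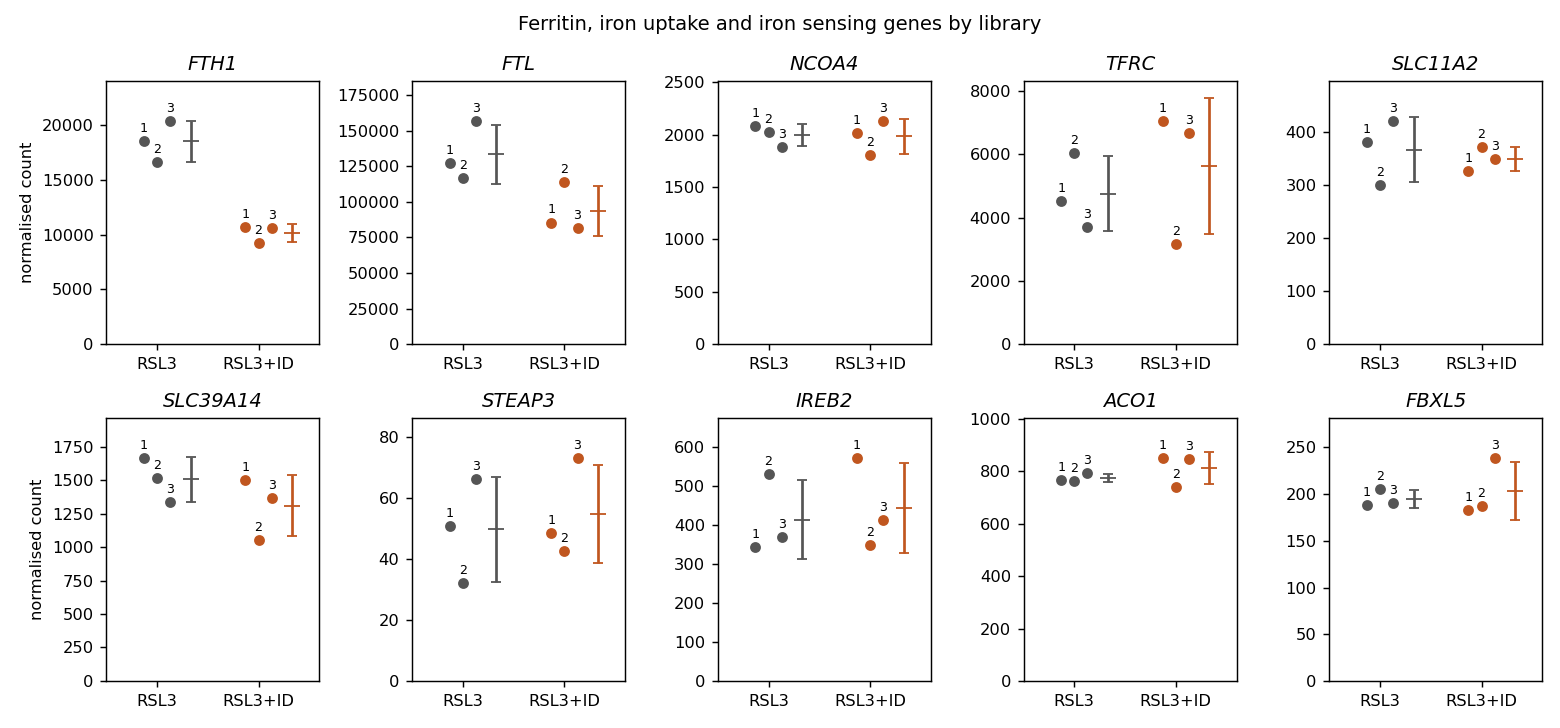
Normalised counts of the 10 genes in each library (points, numbered by library; grey RSL3, orange RSL3+ID), with group mean and SD beside them; each axis starts at 0. FTH1 lies between 16655 and 20365 with RSL3 and between 9242 and 10663 with RSL3+ID, FTL is the other gene whose groups do not overlap, and TFRC spreads widest within RSL3+ID. Of all genes tested, 12.6% had every RSL3+ID library below every RSL3 library and 12.8% had every one above.

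Ferritin heavy chain RNA was lower with indirubin, and it was the gene of the 10 that passed the test. FTH1 had 18548, 16655 and 20365 normalised counts in RSL3 libraries 1, 2 and 3 and 10663, 9242 and 10606 in the RSL3+ID libraries. All 3 RSL3+ID libraries lay below all 3 RSL3 libraries. The fall was 1.82-fold (log2 fold change −0.86, SE 0.13, 95% confidence interval −1.15 to −0.58, adjusted p = 0.0172 with limma). Of all 14188 genes tested, 0.832% were called lower and 1.08% higher, and all RSL3+ID libraries lay below all RSL3 libraries for 12.6% of them. Higher genes made up 56.5% of all calls, against 29.3% with scaling to total reads and 73.8% with upper-quartile scaling, and FTH1 fell under each. The share of all reads taken by FTH1 was between 0.106% and 0.129% with RSL3 and between 0.058% and 0.0628% with RSL3+ID. In the authors' deposited table FTH1 had a log2 fold change of −0.865 (SE 0.152) and an adjusted p of 7.86e-06. In bulk RNA, fewer cells of a type and less RNA per cell cannot be told apart.

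The FTH1 call depended on having all libraries or leaving out RSL3+ID library 2. Leaving out RSL3 library 1, 2 or 3 gave an adjusted p of 0.15, 0.0871 or 0.0814. Leaving out RSL3+ID library 1 or 3 gave 0.0688 or 0.0786, and at most 4 of all genes were called in these settings. Leaving out RSL3+ID library 2 gave 0.000186. The estimate stayed between −0.94 and −0.79 on the log2 scale. FTH1 (ENSG00000167996) spans chromosome 11 from 61959718 to 61967660 on GRCh38 and is protein-coding; BEST1 overlaps it on the opposite strand at a mean of 130.9 normalised counts. Reads on processed copies of ferritin were few. Of 14 FTH1P and FTLP entries 11 were at 0, and the most abundant, FTH1P2, had 9 to 19 reads per library; FTH1P entries held at most 0.15% as many reads as FTH1.

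Ferritin light chain RNA was also lower in every RSL3+ID library, but by less and without passing the test. Such a lack of overlap, with RSL3+ID lower, was seen for 12.6% of all genes tested. FTL had 127557, 116578 and 156752 normalised counts with RSL3 and 85525, 113748 and 81506 with RSL3+ID. The groups came close: RSL3+ID library 2 was a little below RSL3 library 2, while the other RSL3+ID libraries were well apart from all RSL3 libraries. The log2 fold change was −0.52 (SE 0.15, 95% confidence interval −0.85 to −0.18, adjusted p = 0.0997 with limma). Without RSL3+ID library 2 it was −0.67 (adjusted p = 0.000829), a setting in which 9.34% of all genes were called. It also passed without a filter on low values (adjusted p = 0.0479, 1.44% of genes called) and with the trend on exon length removed from each library (−0.74, adjusted p = 0.0375, 0.895% called). FTL did not pass in the other 12 alternatives, with an adjusted p of 0.241 with a replicate block in limma. The authors' deposited table of changed genes does not list FTL. FTL and FTH1 together took 0.91%, 0.848% and 1.12% of all reads in RSL3 libraries 1, 2 and 3 and 0.567%, 0.773% and 0.517% in the RSL3+ID libraries. FTL (ENSG00000087086) spans chromosome 19 from 48965301 to 48966878.

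The heavy and light chains were also set against each other within each library, where library scaling cancels. FTH1 counts per FTL count were 0.145, 0.143 and 0.13 with RSL3 and 0.125, 0.0812 and 0.13 with RSL3+ID. RSL3+ID library 2 had the lowest ratio, and RSL3+ID library 3 was level with RSL3 library 3. The mean log2 ratio was −2.84 ± 0.09 with RSL3 and −3.19 ± 0.38 with RSL3+ID (SD, n = 3 each), a difference of −0.34 (exact permutation test, 2-sided p = 0.2, where 0.1 is the smallest possible). A larger fall of the heavy than of the light chain was therefore not shown, and without RSL3+ID library 2 the difference was −0.13.

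NCOA4, the cargo receptor that sends ferritin to the lysosome so that its iron is released, was nearly level. It had 2085, 2022 and 1883 normalised counts with RSL3 and 2017, 1804 and 2128 with RSL3+ID. The groups overlapped throughout. The log2 fold change was −0.01 with a 95% confidence interval from −0.31 to 0.29, so a fold of more than 1.24 either way lay outside the interval (limma, adjusted p = 0.97). HERC2, a ubiquitin ligase that marks NCOA4 for degradation, differed by −0.13 on the log2 scale (SE 0.16, adjusted p = 0.708 with limma).

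**Figure D2:**
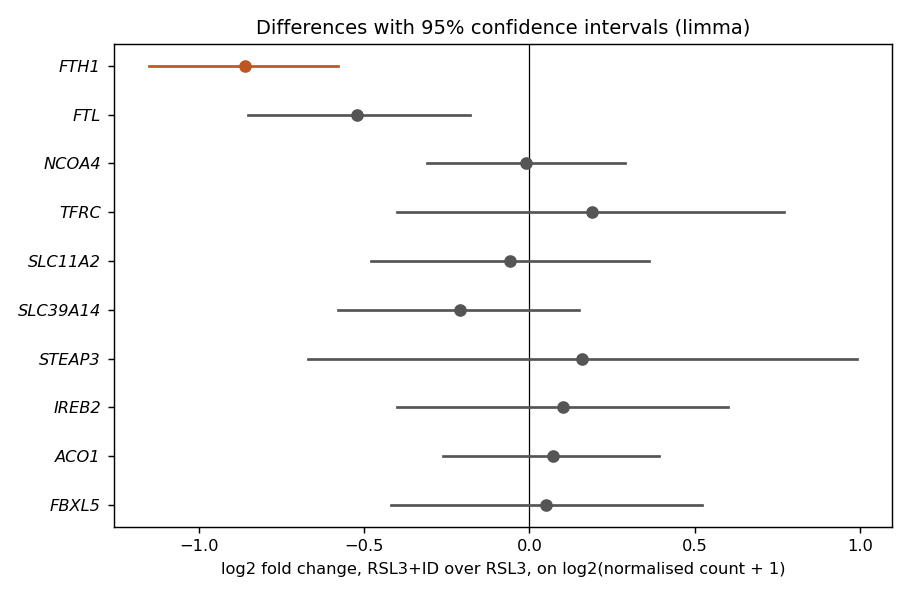
Log2 fold change of each gene, RSL3+ID over RSL3, on the log2(normalised count + 1) scale (points) with 95% confidence intervals from limma (lines); orange marks an adjusted p under 0.05. FTH1 at −0.86 is the gene called, the FTL interval from −0.85 to −0.18 leaves out 0, and the other 8 intervals include 0. An unadjusted p under 0.05 with limma was reached by 2 of the 10 genes, against 19.3% of all genes tested.

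Of the 4 uptake genes 0 passed with limma, and their libraries overlapped between groups. At an unadjusted p under 0.05 the count was also 0. Over all genes 1.91% passed and 19.3% had an unadjusted p under 0.05, so a count of 0 among so few genes is no result about them. TFRC, the receptor that takes up transferrin-bound iron, varied most within RSL3+ID (coefficient of variation 38.1%). It had 4528, 6037 and 3711 normalised counts with RSL3 and 7053, 3165 and 6683 with RSL3+ID. RSL3+ID libraries 1 and 3 lay above every RSL3 library, and RSL3+ID library 2 lay below every one. The log2 fold change was 0.19 (SE 0.27, 95% confidence interval −0.40 to 0.77, adjusted p = 0.75 with limma). Without RSL3+ID library 2 it was 0.56 (adjusted p = 0.0389), and without RSL3+ID library 1 it turned to −0.02 (adjusted p = 0.979). TFRC (ENSG00000072274) spans chromosome 3 from 196027183 to 196082189.

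The uptake receptor was read against the storage chain in the same way. TFRC counts per FTH1 count were 0.244, 0.363 and 0.182 with RSL3 and 0.661, 0.342 and 0.63 with RSL3+ID. RSL3+ID libraries 1 and 3 were above every RSL3 library, and RSL3+ID library 2 fell just under RSL3 library 2. The mean log2 ratio was −1.98 ± 0.50 and −0.94 ± 0.53 (SD, n = 3 each), a difference of 1.05 (exact permutation test, 2-sided p = 0.2, smallest possible 0.1). With 1 library left out the difference stayed between 0.81 and 1.35.

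**Figure D3:**
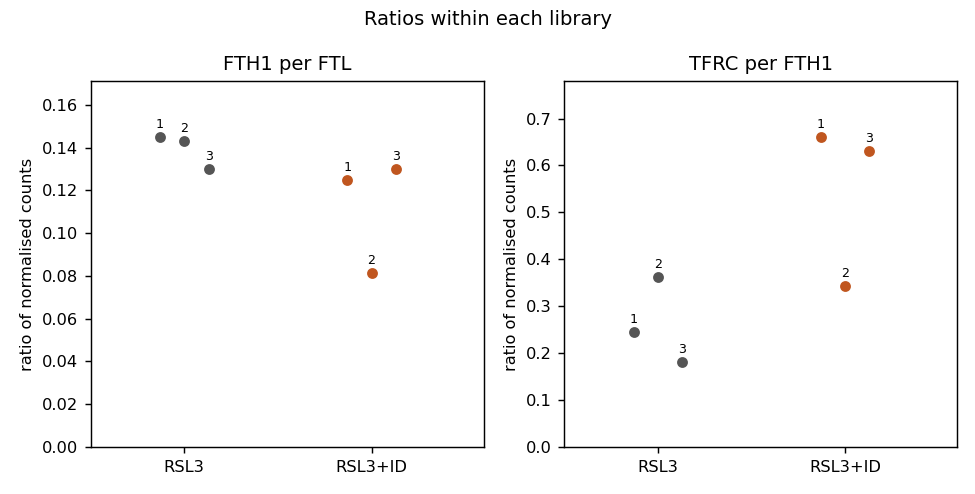
Ratio of normalised counts within each library (points, numbered by library; grey RSL3, orange RSL3+ID; axes start at 0), FTH1 per FTL on the left and TFRC per FTH1 on the right. RSL3+ID library 2 has the lowest FTH1 per FTL ratio, 0.0812, and RSL3+ID libraries 1 and 3 have the highest TFRC per FTH1 ratios, 0.661 and 0.63.

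SLC11A2, which encodes the ferrous iron carrier DMT1 of endosomes, had 381.5, 300.6 and 421.3 normalised counts with RSL3 and 326.3, 371.7 and 350.4 with RSL3+ID. The RSL3+ID libraries lay within the range of the RSL3 libraries (log2 fold change −0.06, SE 0.19, 95% confidence interval −0.48 to 0.36). Its transcripts differ in whether the tail carries an iron-responsive element, and counts per gene do not separate them.

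SLC39A14, which encodes ZIP14, a carrier of iron that is not bound to transferrin, had 1666, 1515 and 1334 normalised counts with RSL3 and 1501, 1056 and 1368 with RSL3+ID. RSL3+ID library 2 was the lowest and the other libraries overlapped. Its estimate was −0.21 on the log2 scale (SE 0.17, 95% confidence interval −0.58 to 0.15, adjusted p = 0.524 with limma), and −0.07 without RSL3+ID library 2. STEAP3, the endosomal ferrireductase best known from red cell precursors, was scarce, with 31 to 64 reads in the RSL3 libraries and 43 to 76 in the RSL3+ID libraries. Its log2 fold change of 0.16 had the widest interval of the 10, from −0.67 to 0.99, so a rise of up to 1.99-fold or a fall of up to 1.59-fold lay within it.

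Of the 3 sensor genes 0 passed with limma, against 1.91% of all genes, and 0 had an unadjusted p under 0.05, against 19.3%; with so few genes these counts do not set the sensors apart. They had log2 fold changes between 0.05 and 0.10. IREB2 encodes IRP2, the iron-regulatory protein that is degraded when iron is plentiful. It had 342.2, 528.9 and 367.6 normalised counts with RSL3 and 571.3, 346.9 and 413 with RSL3+ID. RSL3 library 2 and RSL3+ID library 1 were high and the other 4 libraries were low. On the log2 scale the difference was 0.10 (SE 0.23, 95% confidence interval −0.40 to 0.60), and it turned to −0.02 without RSL3 library 1 and to −0.10 without RSL3+ID library 1.

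ACO1 encodes IRP1, which serves as cytosolic aconitase when it holds an iron-sulfur cluster and binds RNA when it does not. It had 767.5, 763.3 and 793 normalised counts with RSL3, the tightest group of the 10 genes (coefficient of variation 2.07%), and 851.2, 741.4 and 846.3 with RSL3+ID. RSL3+ID libraries 1 and 3 were above the RSL3 libraries and library 2 was below them. The log2 fold change was 0.07 (SE 0.15, 95% confidence interval −0.26 to 0.39), and −0.02 with scaling to total reads.

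FBXL5, the substrate receptor of the ubiquitin ligase that removes IRP2 when iron and oxygen are present, had 188.5, 205.6 and 190 normalised counts with RSL3 and 182.7, 187.3 and 238.8 with RSL3+ID. RSL3+ID library 3 was the highest and the other 5 libraries lay close together. The log2 fold change was 0.05 (SE 0.22, 95% confidence interval −0.42 to 0.52), −0.04 with scaling to total reads and −0.07 without RSL3+ID library 3. FAM200B, on the opposite strand, overlaps the span of FBXL5 and has a mean of 165.3 normalised counts. The strand setting of the counting is not known, so reads in a stretch shared by these genes may not be told apart. How much exon sequence they share was not measured. Over the 10 genes 5 estimates were positive and 5 negative, with a median log2 fold change of 0.02, against −0.02 over all 14188 genes.

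**Figure D4:**
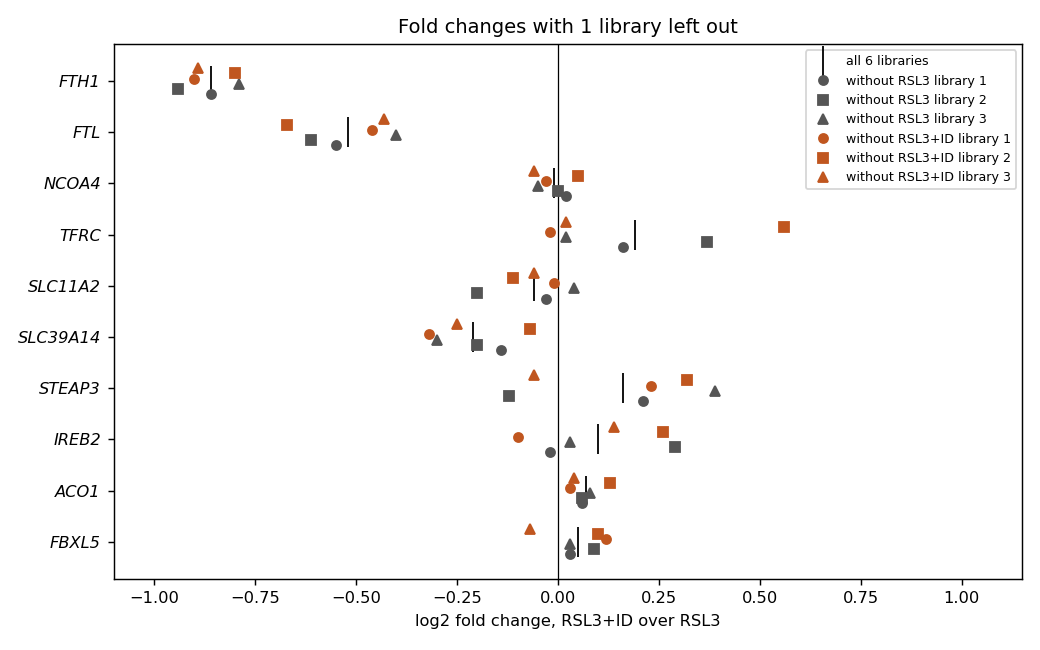
Log2 fold change of each gene, RSL3+ID over RSL3, with all 6 libraries (black bar) and with 1 library left out (grey RSL3, orange RSL3+ID; circle, square and triangle for libraries 1, 2 and 3). FTH1 stays between −0.94 and −0.79 and FTL between −0.67 and −0.40, while TFRC runs from −0.02 to 0.56 and STEAP3 from −0.12 to 0.39.

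The other genes of cellular iron handling moved both ways. Of 54 such genes 53 were matched and 41 passed the filter on low values, with 22 positive and 19 negative estimates and a median log2 fold change of 0.03. Among the 41, 2 rose and 1 fell, against 1.91% of all genes called. HMOX1, the inducible heme oxygenase that frees iron from heme, had 22828, 20524 and 17616 normalised counts with RSL3 and 7794, 12177 and 11651 with RSL3+ID (log2 fold change −0.97, adjusted p = 0.0291 with limma). HMOX2, the constitutive form, was higher in each RSL3+ID library (1297, 1895 and 1238 against 793.4, 743.7 and 892.1; log2 fold change 0.84, adjusted p = 0.0443 with limma, 0.0697 with scaling to total reads and 0.051 with the exon length trend removed). With limma 0 genes passed of uptake and reduction (8 tested), storage and iron chaperones (5), export (4) and mitochondrial iron and iron-sulfur assembly (16). At an unadjusted p under 0.05 the counts were 0, 1, 1 and 3, against 19.3% of all genes.

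The remaining call was among the partners of FBXL5. SKP1, the adaptor that joins F-box proteins to the ligase, had 7358, 8464 and 7591 normalised counts with RSL3 and 11360, 11830 and 12605 with RSL3+ID. Every RSL3+ID library was above every RSL3 library, as was true of 12.8% of all genes. The rise was 1.53-fold (log2 fold change 0.61, SE 0.12, adjusted p = 0.0391 with limma). CUL1, the ligase scaffold, had 831, 838.7 and 706.2 against 573.4, 568 and 590.2 (log2 fold change −0.45, SE 0.16, adjusted p = 0.144 with limma), and RBX1, its RING subunit, had a log2 fold change of 0.31 (adjusted p = 0.323). These partners serve many other F-box proteins as well. The calls of HMOX1, HMOX2 and SKP1 were lost without RSL3 library 1, 2 or 3 and without RSL3+ID library 1 or 3. In these settings at most 4 of all genes were called, and the adjusted p of SKP1 lay between 0.074 and 0.266 with limma. The calls were kept without RSL3+ID library 2. For HMOX1, HMOX2 and SKP1 the authors' deposited table gives log2 fold changes of −0.947, 0.867 and 0.613. Its adjusted p-values for them are 0.000145, 0.00155 and 0.00184.

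Of the other iron genes that missed the threshold, with a mean normalised count of at least 100, SLC25A28, PCBP1 and BLVRB were among the 4 with the largest changes. SLC25A28, which encodes the mitochondrial iron importer mitoferrin 2, differed by 0.55 on the log2 scale (SE 0.17, adjusted p = 0.106 with limma), and the authors' deposited table gives it 0.565 with an adjusted p of 0.045. PCBP1, a chaperone that delivers iron to ferritin, had −0.49 (adjusted p = 0.177), with 4483, 4020 and 4298 normalised counts against 3895, 2225 and 3219. BLVRB, a biliverdin reductase, had 0.45 (adjusted p = 0.264). PROM2, a membrane protein linked to export of ferritin in vesicles, was picked out after its values were seen: it had 67.9, 52.7 and 92.9 normalised counts with RSL3 and 12.7, 30.7 and 28.9 with RSL3+ID. Its log2 fold change was −1.58 (SE 0.43, adjusted p = 0.0807 with limma), and the authors' deposited table gives −1.56 with an adjusted p of 0.0271. SLC40A1, the ferroportin that exports iron from cells, had 60.3 ± 11 and 80.6 ± 15.9 normalised counts (SD, n = 3; log2 fold change 0.41, adjusted p = 0.501 with limma), and mitochondrial ferritin FTMT was at 0 in every library.

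**Figure D5:**
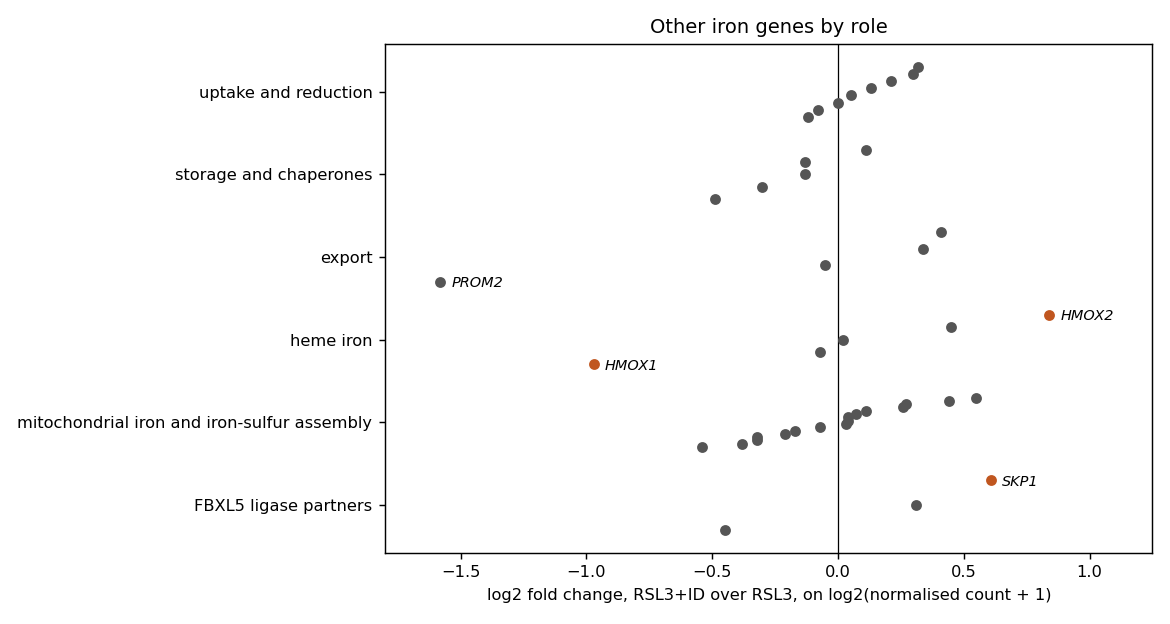
Log2 fold change, RSL3+ID over RSL3, on the log2(normalised count + 1) scale of the 41 tested genes of iron handling outside the 10, by role (1 point per gene, spread vertically for legibility; orange marks an adjusted p under 0.05). HMOX1 at −0.97, HMOX2 at 0.84 and SKP1 at 0.61 are called, and PROM2 at −1.58 is not.

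mRNAs known to carry an iron-responsive element were listed by the side on which they carry it, and no difference between the lists was tested. Of 5 tested with the element near the start, FTH1 fell and the median log2 fold change was −0.32, with SLC40A1 at 0.41 and EPAS1, the hypoxia factor HIF-2α, at 0.02. ALAS2, the erythroid heme synthesis enzyme, was below the filter. Of 4 with the element in the tail 0 passed with limma (1.91% of all genes did), 0 had an unadjusted p under 0.05 (19.3% of all genes did), and the median was 0.06. Beside TFRC and SLC11A2 these were CDC14A, a phosphatase (0.42, adjusted p = 0.376 with limma), and CDC42BPA, a kinase (−0.11, adjusted p = 0.882).

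Genes whose library profile most resembled that of FTH1 were sought among 3195 other tested genes whose mean reached 1000 normalised counts. Over the 6 libraries, which fall into 2 groups and give the measure little to rest on, 39 genes had a Pearson correlation of at least 0.95 with FTH1. The 5 highest were NUCB1, a Golgi calcium-binding protein (0.999), the keratin gene KRT18 (0.998), CDC42EP1, an effector of CDC42 (0.995), PMEPA1, an inhibitor of TGF-β signalling (0.988), and ZFAND2A, a stress-induced zinc finger protein (0.987). Since the FTH1 profile is largely the difference between the groups, the choice itself fixes that these genes are lower with RSL3+ID, and their log2 fold changes are given as a description: −0.47, −0.66, −0.76, −1.34 and −0.40 in the same order. KRT18 is at the same time a marker of the epithelial cells described above.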

How the data were processed

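The submitters' processing notes list Trimmomatic (0.39), HISAT2 (2.2.1), StringTie (2.1.5), DESeq2 (1.30.0) and GRCh38 without roles; the counter, strand setting and annotation were not given in the sources used here. The authors' deposited expression table holds variance-stabilised log2 values. Inverting the transform gave normalised counts (reads over a size factor), 100.0% of them within 0.001 of whole reads. The authors' deposited table of changed genes holds base means (a signal), log2 fold changes, a test score and p-values, per the file headers; its base means were matched for 894 genes. Columns named RSL3 plus a garbled word, read as "drug given" in Chinese, were taken as RSL3+ID.

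Log2(normalised count + 1) was tested with limma 3.58.1 in R 4.3.3 (trended, robust, 2-sided, Benjamini-Hochberg over 14188 genes with a mean of at least 10). The test was first tried on simulated data, with 50 genes changed at each fold. It recovered 0 of them at 1.5-fold, 24 at 2-fold, 37 at 3-fold and 47 at 4-fold. A gene that did not pass may therefore still differ. Alternatives changed the pseudocount, filter, scaling, libraries kept, replicate block and exon length trend. The members and lists were chosen with earlier results of these data known. Named genes are the 10 members, HMOX1, other iron genes that passed, the 4 largest changes among those that did not with a mean of at least 100, the 5 profiles nearest FTH1, and the most abundant ferritin copy. Genes of the marker and element lists, CUL1, RBX1, HERC2, FTMT and PROM2 are named beyond that rule. Some genes of these lists are not reported here.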

Additional observations from a re-analysis of the deposited data

How the results depend on the processing

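FTH1 was lower in all 15 alternatives, and FTL was lower in all of them as well. The count of 271 genes called was 127 with the exon length trend removed, 0 with a replicate block in limma (1993 at an unadjusted p under 0.05), and 0 to 1325 with 1 library left out (1325 without RSL3+ID library 2, at most 4 otherwise). Of the 10 members 1 was called (1.91% of all genes), against 2 without a filter on low values (1.44%) and 2 with the exon length trend removed (0.895%). The count of members was 0 with the replicate block and 0 to 3 with 1 library left out. The 3 were called without RSL3+ID library 2, where 9.34% of all genes were. Of the other iron genes 3 were called, against 0 with the block and 0 to 4 with 1 library left out, the 4 also without RSL3+ID library 2. With scaling to total reads the median over all genes was −0.11 on the log2 scale and 29.3% of calls were higher, against 56.5%; with upper-quartile scaling 73.8% were. The planned count tests on recovered reads are not reported, because the deposited unit is log2.

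Whether the numbers in the column names pair the libraries is not recorded. Deviations from the group means correlated at −0.002, −0.246 and −0.18 between same-numbered libraries, and no library correlated best with its own number. With 3 libraries a group the deviations within a group depend on each other, so these correlations cannot decide it. With the numbers as a replicate block, FTH1 had an adjusted p of 0.15 with limma. Estimates near 0 changed sign. NCOA4 was 0.05 with upper-quartile scaling. SLC11A2 and CDC42BPA were 0.09 and 0.11 with the exon length trend removed. ACO1, FBXL5 and EPAS1 were −0.02, −0.04 and −0.07 with scaling to total reads. With 1 library left out the range was −0.06 to 0.05 for NCOA4, −0.02 to 0.56 for TFRC, −0.20 to 0.04 for SLC11A2, −0.12 to 0.39 for STEAP3, −0.10 to 0.29 for IREB2, −0.07 to 0.12 for FBXL5, −0.19 to 0.28 for EPAS1 and −0.32 to 0.17 for CDC42BPA. The cause of these changes was not tested. The precision is limited by 3 libraries a group and, for STEAP3, also by 31 to 76 reads a library.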
